A study of Mus musculus with 7 samples.

Results

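The DNA replication genes described here are the genes whose probe sets carry the exact entry "DNA replication" among the biological process terms of Gene Ontology, a controlled vocabulary of gene functions, in the annotated table deposited with the arrays. This rule found 103 probe sets of 96 genes among 18237 genes tested. For the 8 genes with more than 1 probe set, the row was chosen by the mean level over the 7 libraries, the brightest being kept; that level is given only as a description. The 96 genes include the replication machinery of the nucleus and that of mitochondria, repair polymerases, and genes with a looser tie to replication.

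The cells were eosinophils, granulocytes that gather in allergic airways, sorted from lung tissue of mice of the BALB/c strain. Libraries came from OVA challenged lungs (OVA 1 to 3), where OVA is ovalbumin, an egg white protein used as an allergen, or from saline challenged lungs (saline 1 to 4). All libraries share the strain, the tissue and the sort. The labels give no age, dose or time, and leave unsaid whether each library stands for its own mouse, so the tests cover the spread between these libraries, which may be technical.

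To copy its genome once per division, a cell first marks replication origins with the origin recognition complex, which loads the ring-shaped Mcm helicase with the help of Cdc6 and Cdt1. Kinases then fire the origins, Cdc45 and the GINS complex complete the helicase, and DNA polymerases copy both strands with a sliding clamp, a clamp loader, a single-strand binding protein and nucleases and ligases that join the lagging strand fragments. Mature eosinophils are regarded as cells that have left the cell cycle, whereas their bone marrow precursors divide. Part of the same machinery also serves DNA repair.

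Levels are log2 values after robust multi-array averaging (RMA), each difference is the OVA mean minus the saline mean, with a standard error (SE) from limma, and means are given ± SD over 3 OVA and 4 saline libraries. A gene is called higher or lower at an adjusted p under 0.05 by limma (Benjamini-Hochberg, across the 18237 genes). Among all genes 962 (5.27%) were higher and 213 (1.17%) lower, and after a second quantile normalization 927 were higher and 511 lower. The median difference over all genes was -0.07. The SD of levels over all genes was 1.80 to 1.90 in OVA libraries and 1.67 to 1.86 in saline libraries, lowest in saline 2 (1.67) and saline 1 (1.72). Negative control probe sets had a median level of 6.04 to 6.17 in OVA libraries and of 5.86 to 5.95 in saline libraries, a mean difference of 0.18. In bulk samples, fewer cells that express a gene and less RNA per cell cannot be told apart. The eosinophil markers were present, with Ccr3, the eotaxin receptor, at 11.84 ± 0.12 in OVA and 11.98 ± 0.06 in saline, and Siglecf at 10.17 ± 0.11 in OVA and 9.34 ± 0.16 in saline.

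Of the 96 replication genes, 16 were higher in OVA eosinophils and 0 were lower, by limma. This is 16.7% of the 96 genes, beside 5.27% of all genes called higher and 1.17% called lower. The median difference of the 96 genes was 0.18, and 73 of the 96 differences were above 0, beside 38.0% of all genes. The 16 called genes were Rpa3, Rrm1, Pold3, Ssrp1, Blm, Dna2, Lig1, Polg2, Rrm2b, Mcm4, Rfc1, Prim2, Rbbp7, Orc2, Pola2 and Lin9, with differences of 0.54 to 1.21. The OVA libraries lay wholly above the saline libraries for 27 genes and wholly below them for 1 gene, beside 11.0% and 8.63% of all genes. Differences of under 0.2 in either direction were found for 46 of the 96 genes, a count with no share over all genes beside it. The 4 genes called with every library set and every processing alternative tried were Rpa3, Blm, Lig1 and Rbbp7.

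**Figure D1:**
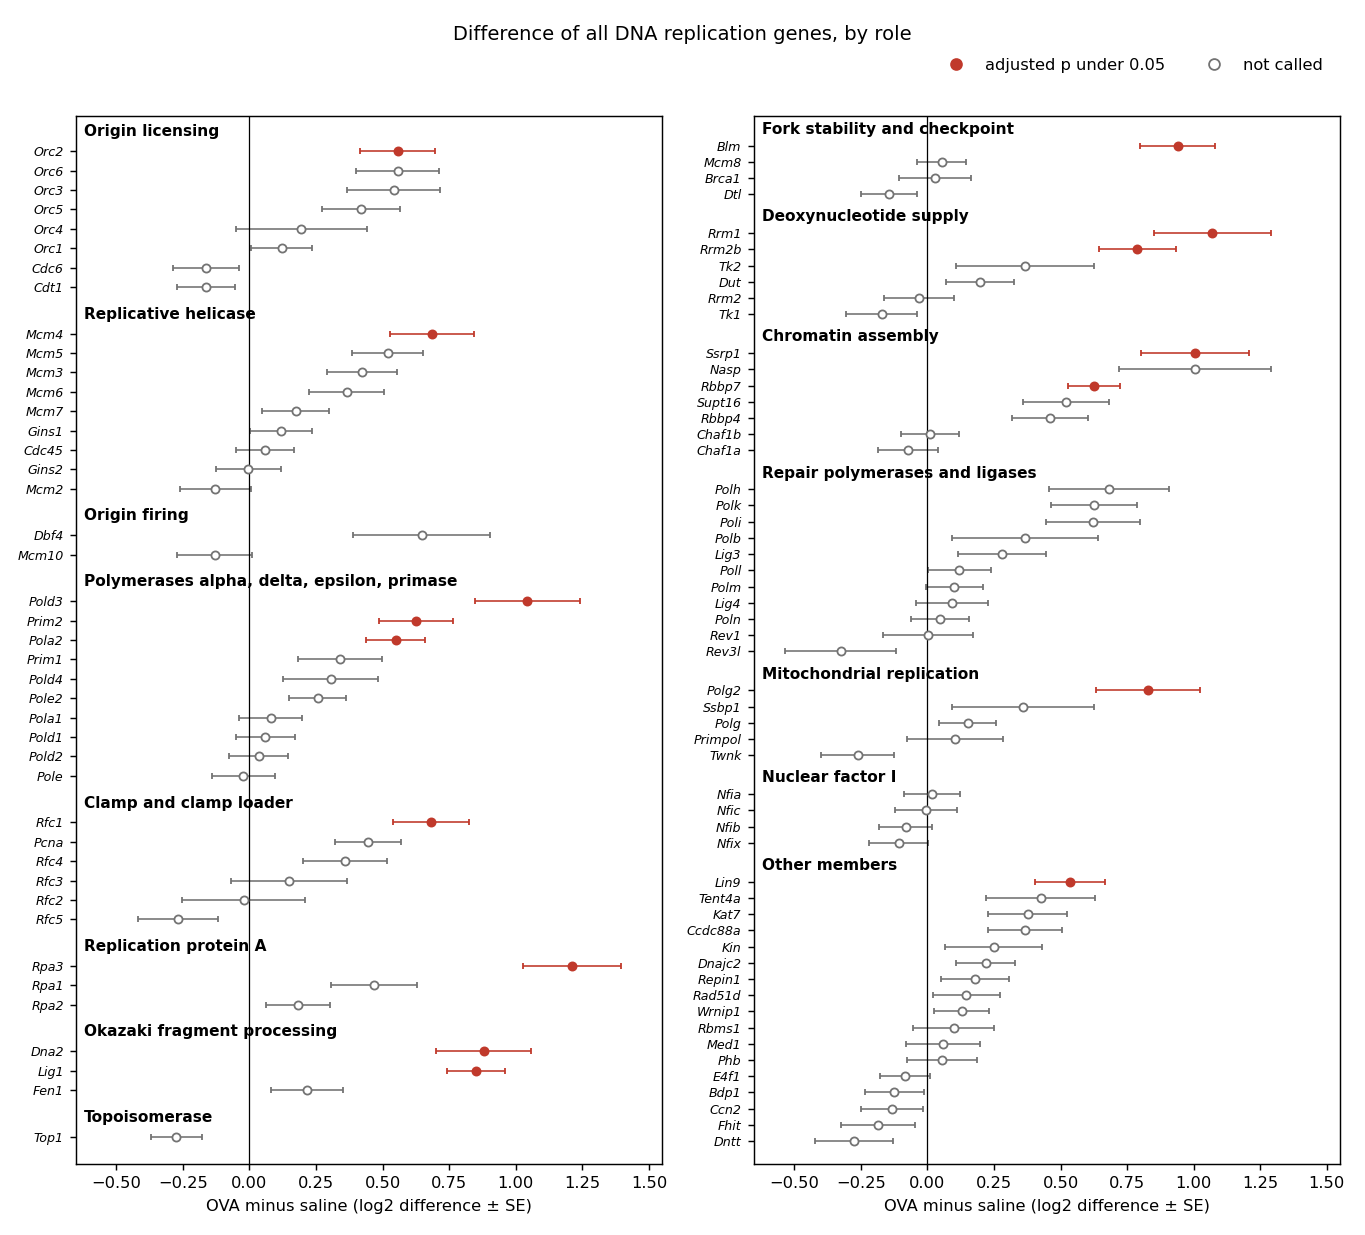
Difference between OVA and saline eosinophils (x axis, log2, OVA minus saline ± SE, n = 3 and 4 libraries) for each of the 96 DNA replication genes, in blocks by role. Filled red points are the 16 genes with a limma adjusted p under 0.05, all to the right of 0, and open grey points are the 80 others, among which Top1, Rfc5 and Rev3l lie to the left.

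The promoters of 6 genes, the DNA around the start of a gene, are shown because replication genes are classic targets of E2F, a family of transcription factors that acts as cells enter S phase. They are the promoters of the 4 called genes whose window held an E2F motif, and of Cdc6 and Cdt1, licensing genes that were not called. Windows of 250 bases before to 50 bases after the start were taken from RefSeq (assembly GRCm38.p6), 1 per gene, the first listed where there were several; 79 of the 96 genes had one. The motifs searched were TTGGCGC and TTCCCGC on both strands, and their bases are in capitals. The windows are Rpa3 (chr6:8259092-8259391, minus strand), Rrm1 (chr7:102441445-102441744, plus strand), Pold3 (chr7:100121453-100121752, minus strand), Rfc1 (chr5:65335590-65335889, minus strand), Cdc6 (chr11:98907901-98908200, plus strand) and Cdt1 (chr8:122567765-122568064, plus strand), each written 5′ to 3′ along its gene.
Rpa3: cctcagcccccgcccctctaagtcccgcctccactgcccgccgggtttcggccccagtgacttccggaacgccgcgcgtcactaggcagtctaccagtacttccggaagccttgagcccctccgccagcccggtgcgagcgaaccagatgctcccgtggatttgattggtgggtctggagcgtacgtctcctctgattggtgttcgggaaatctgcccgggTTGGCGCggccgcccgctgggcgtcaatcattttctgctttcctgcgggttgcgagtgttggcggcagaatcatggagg
Rrm1: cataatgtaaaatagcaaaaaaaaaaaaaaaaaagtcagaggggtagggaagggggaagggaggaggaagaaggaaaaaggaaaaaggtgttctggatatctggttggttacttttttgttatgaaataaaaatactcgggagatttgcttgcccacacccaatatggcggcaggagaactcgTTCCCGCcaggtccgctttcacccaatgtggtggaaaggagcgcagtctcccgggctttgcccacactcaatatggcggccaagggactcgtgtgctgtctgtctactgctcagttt
Pold3: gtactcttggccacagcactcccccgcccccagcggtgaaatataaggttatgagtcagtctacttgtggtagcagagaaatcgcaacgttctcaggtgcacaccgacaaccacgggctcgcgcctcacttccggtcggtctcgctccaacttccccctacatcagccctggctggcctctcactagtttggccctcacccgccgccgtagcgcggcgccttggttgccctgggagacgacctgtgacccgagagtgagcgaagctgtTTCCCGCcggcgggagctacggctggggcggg
Rfc1: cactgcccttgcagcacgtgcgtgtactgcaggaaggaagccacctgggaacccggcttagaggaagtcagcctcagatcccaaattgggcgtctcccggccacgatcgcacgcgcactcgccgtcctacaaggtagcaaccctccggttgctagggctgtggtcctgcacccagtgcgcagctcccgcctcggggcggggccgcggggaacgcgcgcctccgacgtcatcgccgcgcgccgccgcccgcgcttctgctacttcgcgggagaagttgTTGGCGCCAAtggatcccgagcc
Cdc6: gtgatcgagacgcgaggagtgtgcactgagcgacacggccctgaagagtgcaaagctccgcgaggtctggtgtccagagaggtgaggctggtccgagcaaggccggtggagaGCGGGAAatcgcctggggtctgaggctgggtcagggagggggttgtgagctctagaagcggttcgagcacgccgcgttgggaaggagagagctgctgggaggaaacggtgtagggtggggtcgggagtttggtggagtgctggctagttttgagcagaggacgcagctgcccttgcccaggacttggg
Cdt1: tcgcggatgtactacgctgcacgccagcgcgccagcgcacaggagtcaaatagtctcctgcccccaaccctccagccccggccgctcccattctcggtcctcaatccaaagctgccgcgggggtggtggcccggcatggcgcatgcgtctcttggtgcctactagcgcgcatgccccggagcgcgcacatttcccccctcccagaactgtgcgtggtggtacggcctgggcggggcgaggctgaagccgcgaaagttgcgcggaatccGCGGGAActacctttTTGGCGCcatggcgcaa

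At least 1 of these motifs was present in 26 of the 79 promoters (32.9%), beside 6.93% of all 27025 promoters and 9.6% of the promoters of genes tested. Of the 12 called genes with a window, 4 had it, against 22 of 67 genes that were not called. In Rpa3 the motif began 29 bases before the start and in Rrm1 67 bases before it. In Rfc1 the matches to TTGGCGC on both strands overlap, so that they form 1 run of capitals, and Cdt1 holds both motifs after its start. Other elements of cell cycle promoters were searched on both strands: CCAAT was in 42 of the 79 promoters (53.2%; 37.9% of all promoters and 38.5% of those of genes tested) and TTTGAA, the cell cycle homology region, in 13 of them (16.5%; 18.1% of all promoters and 15.1% of those of genes tested). These matches are letters in a window, and binding was not measured.

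For each role and related list below, the shares over all genes are those given above, 5.27% higher and 1.17% lower. Whether the count of any list differs from them was not tested. Of the 8 origin licensing genes, Orc2 was higher and the other 7 were not called. Orc2, a subunit of the origin recognition complex, had 6.13, 6.19 and 6.44 in OVA 1 to 3, against 5.89, 5.42, 5.82 and 5.66 in saline 1 to 4. The groups did not overlap, and saline 2 was the lowest library. Orc2 rose by 0.56 (SE 0.14, limma adjusted p = 0.0463), but its saline mean of 5.70 lay under the negative control median, so the size is poorly measured. Among other alternatives, the call was lost without any 1 of the 7 libraries (limma adjusted p 0.0514 to 0.214), without saline 1 and 2 together (0.0605) and after median centring (0.0619).

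The other subunits Orc6, Orc3, Orc5, Orc4 and Orc1 differed by 0.56, 0.54, 0.42, 0.20 and 0.12 (limma adjusted p = 0.0722, 0.114, 0.145, 0.635 and 0.53). Orc5 and Orc1 lay under the negative control median in both groups, so their differences are poorly measured. Orc4 shows how the saline libraries parted: it had 7.34, 7.65 and 7.66 in OVA 1 to 3, against 6.80, 7.12, 7.53 and 7.97 in saline 1 to 4, so that saline 4 was the highest library of all. Cdc6, which joins the complex at the origin, had 6.05, 5.72 and 6.15 in OVA, against 6.13, 6.21, 6.03 and 6.17 in saline (difference -0.16, SE 0.12). Cdt1, the other loading factor, had 6.33, 6.56 and 6.38 in OVA, against 6.70, 6.45, 6.62 and 6.57 in saline (difference -0.16, SE 0.11). For both loading factors the groups overlapped, and limma gave adjusted p = 0.451 and 0.399.

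The replicative helicase is a ring of Mcm2 to Mcm7 with Cdc45 and GINS. Of its 9 genes in the list, Mcm4 was higher, and 8 were not called. Mcm4 had 7.02, 7.11 and 7.35 in OVA 1 to 3, against 6.29, 6.22, 6.59 and 6.80 in saline 1 to 4. All 3 OVA libraries lay above saline 4, the highest of its group, and Mcm4 rose by 0.69 (SE 0.16, limma adjusted p = 0.0341). The call was lost without OVA 1 (limma adjusted p = 0.0703), OVA 2 (0.116), OVA 3 (0.169), saline 1 (0.0879), saline 2 (0.0592), saline 1 and 2 together (0.0939), after median centring (0.0638) and after a second quantile normalization (0.051).

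Mcm5 and Mcm3, which belong to the same ring, had no overlap between groups and missed the threshold. Mcm5 had 6.90, 7.15 and 7.23 in OVA, against 6.81, 6.54, 6.59 and 6.36 in saline (difference 0.52, SE 0.13, limma adjusted p = 0.0529). Mcm3 had 6.25, 6.35 and 6.49 in OVA, against 5.87, 6.02, 6.17 and 5.70 in saline (difference 0.42, SE 0.13, limma adjusted p = 0.101). Mcm6, Mcm7 and Mcm2 differed by 0.37, 0.17 and -0.13 (limma adjusted p = 0.183, 0.428 and 0.568). Cdc45 differed by 0.06, Gins1 by 0.12 and Gins2 by -0.01, and none was called. Gins1 lay under the negative control median in both groups. Whether the differences of the 6 Mcm genes differ from each other was not tested.

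Origins are fired by kinases and by Mcm10. Dbf4, the activating subunit of the Cdc7 kinase, had 6.69, 6.59 and 6.72 in OVA 1 to 3, against 6.66, 6.26, 5.39 and 5.77 in saline 1 to 4 (difference 0.65, SE 0.26, limma adjusted p = 0.193). Saline 1 lay within the OVA range, and saline 3 and 4 were lowest. Dbf4 was called higher without saline 1 and 2 together (limma adjusted p = 0.0044) and with array weights (0.0307). Mcm10 differed by -0.13 (SE 0.14).

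Among the 10 genes of the replicative polymerases and primase, 3 were higher. Pold3, an accessory subunit of polymerase delta, had 8.73, 8.60 and 8.96 in OVA 1 to 3, against 7.54, 7.52, 7.53 and 8.29 in saline 1 to 4. Saline 4 stood apart from the other 3 saline libraries and still lay below every OVA library. Pold3 rose by 1.04 (SE 0.20, limma adjusted p = 0.0142), and the call was lost without OVA 1 (0.0557), OVA 3 (0.0881) or saline 1 and 2 together (0.0639).

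Prim2, the large subunit of the primase that makes the RNA primer, had 6.45, 6.36 and 6.82 in OVA, against 5.96, 5.97, 5.70 and 6.04 in saline. It rose by 0.63 (SE 0.14, limma adjusted p = 0.0295). Its saline mean of 5.92 lay near the negative control median, so the size is poorly measured. The losses of the Prim2 call included those without OVA 1 (limma adjusted p = 0.0715), OVA 2 (0.0572), OVA 3 (0.125), saline 1 (0.064), saline 3 (0.0615) or saline 1 and 2 together (0.0602). Pola2, the second subunit of polymerase alpha, had 6.57, 6.76 and 6.81 in OVA, against 6.17, 6.10, 6.07 and 6.32 in saline. It rose by 0.55 (SE 0.11, limma adjusted p = 0.0189), a call lost without OVA 2 (0.103), OVA 3 (0.101) or saline 1 and 2 together (0.0562). For both genes the groups did not overlap.

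The catalytic subunits showed small differences. Pola1 differed by 0.08, Pold1 by 0.06 and Pole by -0.02 (limma adjusted p = 0.687, 0.746 and 0.911), and Pola1 and Pole lay under the negative control median in both groups. Prim1, the catalytic primase subunit, also under that median, differed by 0.34 and was called higher without saline 1 and 2 together (limma adjusted p = 0.0178), after cyclic loess (0.0445) and after a second quantile normalization (0.0481). Pold4, Pole2 and Pold2 differed by 0.31, 0.26 and 0.04, and Pole2 lay under the negative control median in both groups.

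**Figure D2:**
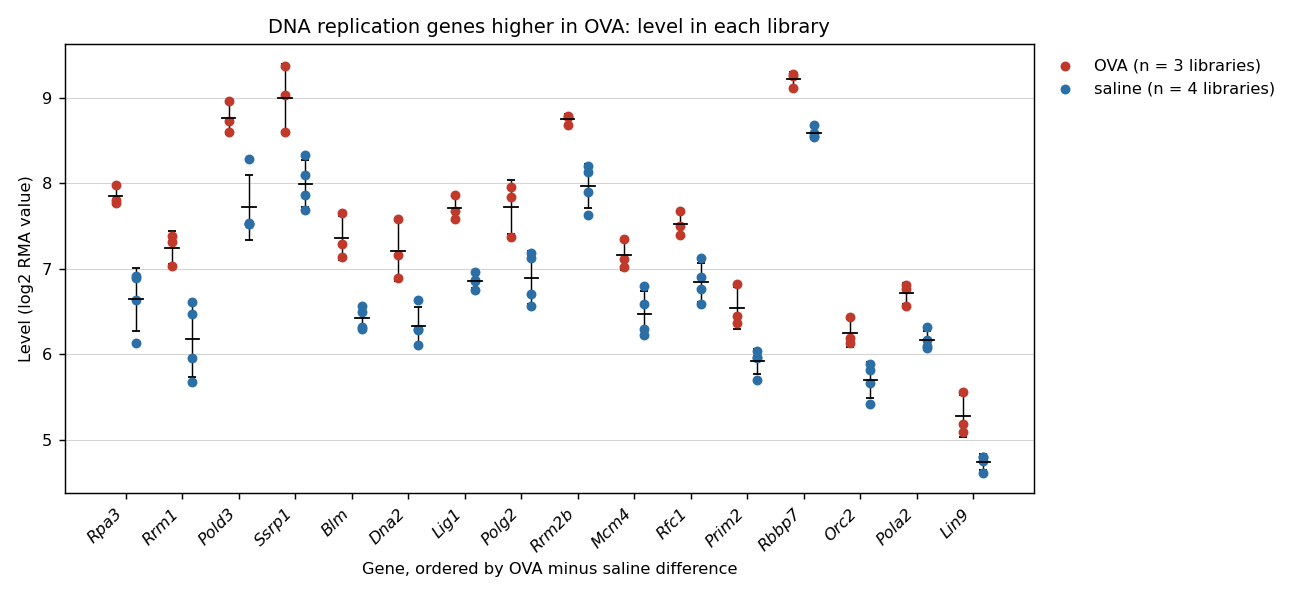
Level (y axis, log2 RMA value) of the 16 DNA replication genes called higher, ordered by difference, with 1 point per library, OVA in red (n = 3) and saline in blue (n = 4), and black bars for mean ± SD. No saline point reaches the lowest OVA point of its gene, and the saline libraries of Rpa3, Rrm1 and Pold3 spread widely.

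The clamp Pcna and its loader, replication factor C, gave 1 called gene of 6. Rfc1, the large subunit of the loader, had 7.40, 7.50 and 7.68 in OVA 1 to 3, against 6.59, 6.76, 7.13 and 6.90 in saline 1 to 4, with no overlap. Rfc1 rose by 0.68 (SE 0.14, limma adjusted p = 0.0218), and the call was lost on leaving out saline 1 and 2 together (0.061), OVA 1 (0.0518), OVA 2 (0.0902) or OVA 3 (0.119). The smaller subunits Rfc4, Rfc3, Rfc2 and Rfc5 differed by 0.36, 0.15, -0.02 and -0.27 and were not called.

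Pcna had 10.78, 10.65 and 10.86 in OVA, against 10.32, 10.11, 10.29 and 10.55 in saline (difference 0.45, SE 0.12, limma adjusted p = 0.0688). The groups did not overlap, and saline 4 was the closest library to the OVA range. Without saline 4 Pcna was called higher (difference 0.52, limma adjusted p = 0.0282). A second probe set named Pcna gave nearly equal values in every library (difference 0.46), so both may read the same sequence and are counted as 1 measurement.

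Replication protein A coats single-stranded DNA, and its smallest subunit, Rpa3, had the largest difference of the 96 genes. Rpa3 had 7.81, 7.77 and 7.98 in OVA 1 to 3, against 6.63, 6.13, 6.89 and 6.92 in saline 1 to 4. Every OVA library lay well above the highest saline library, and saline 2 was lowest. Rpa3 rose by 1.21 (SE 0.19, limma adjusted p = 0.00522), and over the alternatives the adjusted p ran from 0.000707 to 0.0396. Its second probe set had 7.65, 7.95 and 8.19 in OVA, against 5.65, 5.61, 6.57 and 6.46 in saline, a difference of 1.86 (SE 0.26). The probe sets of Rpa3 may share sequence, so the second is not taken as a separate measurement. The large subunit Rpa1 differed by 0.47 (SE 0.16, limma adjusted p = 0.137) and Rpa2 by 0.18 (SE 0.12, limma adjusted p = 0.391).

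Of the 3 genes that mature lagging strand fragments, 2 were higher. Lig1, the DNA ligase that joins them, had 7.58, 7.68 and 7.87 in OVA 1 to 3, against 6.86, 6.96, 6.75 and 6.87 in saline 1 to 4. Its saline libraries lay close together, and Lig1 rose by 0.85 (SE 0.11, limma adjusted p = 0.00222; 0.000275 to 0.0169 over the alternatives). Dna2, a nuclease and helicase that trims long flaps, had 6.89, 7.16 and 7.58 in OVA, against 6.11, 6.30, 6.63 and 6.28 in saline. Dna2 rose by 0.88 (SE 0.18, limma adjusted p = 0.0191), and the call was lost without OVA 2 (0.0759), OVA 3 (0.0844), saline 1 (0.0546) or saline 1 and 2 together (0.0774). Fen1, the flap endonuclease, had 5.96, 6.29 and 6.40 in OVA, against 6.11, 6.10, 5.98 and 5.81 in saline, with overlapping groups (difference 0.22, SE 0.13). Top1, which relieves twist ahead of the fork, had 10.79, 10.76 and 10.65 in OVA, against 11.01, 11.04, 11.03 and 10.95 in saline. It was the 1 gene of the 96 whose OVA libraries lay wholly below the saline libraries, and its difference of -0.27 (SE 0.09) was not called by limma (adjusted p = 0.137).

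Among the 4 genes of fork stability and checkpoint, Blm was higher. Blm, a RecQ helicase that resolves recombination intermediates at stalled forks, had 7.14, 7.65 and 7.29 in OVA 1 to 3, against 6.50, 6.29, 6.57 and 6.32 in saline 1 to 4. The groups stood clear of each other, and Blm rose by 0.94 (SE 0.14, limma adjusted p = 0.00472; 0.000984 to 0.0267 over the alternatives). Brca1, Mcm8 and Dtl lay under the negative control median in both groups and differed by 0.03, 0.05 and -0.14.

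Deoxynucleotides are made by ribonucleotide reductase, whose large subunit is Rrm1 and whose small subunit is Rrm2 in S phase or the p53-inducible Rrm2b outside it. Rrm1 had 7.03, 7.32 and 7.39 in OVA 1 to 3, against 5.96, 6.61, 6.47 and 5.67 in saline 1 to 4. The saline libraries of Rrm1 spread widely, with saline 4 lowest, and Rrm1 rose by 1.07 (SE 0.22, limma adjusted p = 0.0205). Rrm2b had 8.69, 8.79 and 8.78 in OVA, against 7.63, 7.90, 8.20 and 8.13 in saline, and rose by 0.79 (SE 0.14, limma adjusted p = 0.012). The Rrm1 call was lost without OVA 2 (limma adjusted p = 0.0979), OVA 3 (0.115) or saline 1 (0.062), and the Rrm2b call without OVA 2 (0.0653) or OVA 3 (0.0672).

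Rrm2 had 6.47, 6.46 and 6.01 in OVA, against 6.36, 6.25, 6.37 and 6.40 in saline, a difference of -0.03 (SE 0.13, limma adjusted p = 0.892). OVA 3 was the lowest of the 7 libraries for Rrm2, and the groups overlapped. Tk1, the cytosolic thymidine kinase of S phase, differed by -0.17 (second probe set -0.12), its mitochondrial counterpart Tk2 by 0.37 and the dUTPase Dut by 0.20, and limma called none of the 3 (adjusted p = 0.455, 0.421 and 0.388).

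The 7 genes of chromatin assembly had 2 called genes. Ssrp1, a subunit of the histone chaperone FACT, had 8.60, 9.03 and 9.38 in OVA 1 to 3, against 8.33, 7.69, 7.87 and 8.10 in saline 1 to 4. OVA 1 was the lowest OVA library and OVA 3 the highest, and Ssrp1 rose by 1.01 (SE 0.20, limma adjusted p = 0.019), a call lost without OVA 2 (0.0873) or OVA 3 (0.0958). Rbbp7, a histone-binding protein of several chromatin complexes, had 9.26, 9.12 and 9.28 in OVA, against 8.56, 8.54, 8.59 and 8.69 in saline. The libraries of each group lay close together, and Rbbp7 rose by 0.63 (SE 0.10, limma adjusted p = 0.00618; 0.00246 to 0.0447 over the alternatives).

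Nasp, a histone chaperone, had 8.47, 8.46 and 8.87 in OVA, against 6.89, 7.30, 8.12 and 8.07 in saline. The difference of 1.01 was as large as that of Ssrp1, but saline 1 and 2 lay far below saline 3 and 4, and limma did not call it (SE 0.29, adjusted p = 0.0757). Nasp was called higher without saline 3 (limma adjusted p = 0.0401), without saline 4 (0.0363) and without both (0.00102). Supt16, the other FACT subunit, and Rbbp4, a close relative of Rbbp7, differed by 0.52 and 0.46 with no overlap between groups (limma adjusted p = 0.101 and 0.103). Chaf1a and Chaf1b, the subunits of the chromatin assembly factor that works at the clamp, differed by -0.07 and 0.01.

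**Figure D3:**
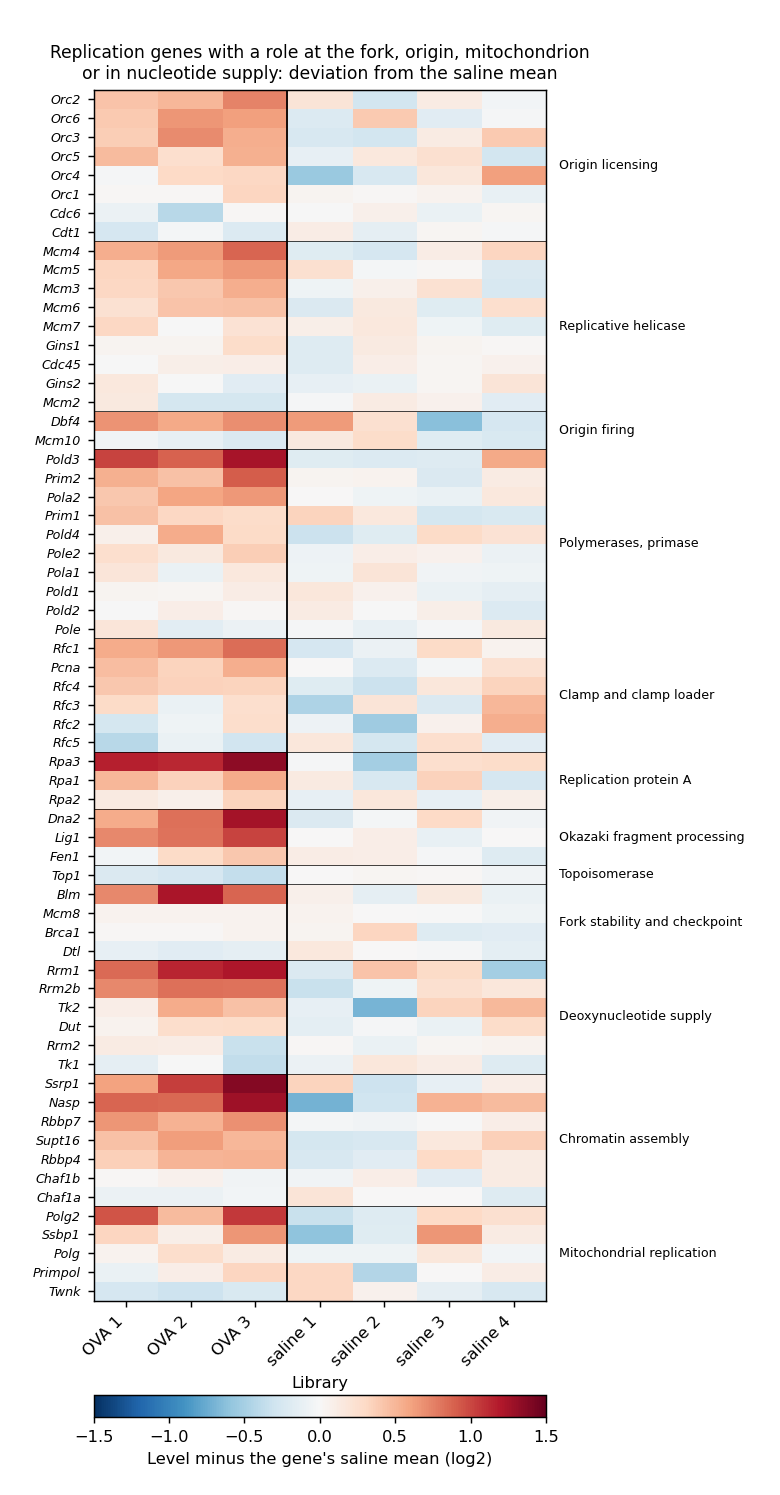
Level of 64 replication genes in each library minus the mean of the gene over the 4 saline libraries (colour, log2), genes in rows by role, OVA libraries left of the line and saline libraries right of it. Red fills the OVA columns for Rpa3, Lig1, Blm and Rrm2b, rows such as Cdc6, Mcm2 and Rrm2 stay pale, and Nasp and Orc4 are blue in saline 1 and 2.

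None of the 11 repair polymerases and ligases was called, beside 5.27% of all genes called higher and 1.17% called lower. Of their 11 differences 10 were above 0, beside 38.0% of all genes. Polh, Polk and Poli, polymerases that copy past damaged bases, differed by 0.68, 0.63 and 0.62 (limma adjusted p = 0.124, 0.0541 and 0.0726). Polk had 6.58, 6.45 and 6.33 in OVA 1 to 3, against 5.82, 5.80, 5.48 and 6.21 in saline 1 to 4, with saline 4 just under the lowest OVA library. Without saline 4 Polk was called higher (limma adjusted p = 0.0109), and Poli was called without saline 2 (0.0372). Rev3l, the catalytic subunit of polymerase zeta, differed by -0.33 (SE 0.21), and Polb, Lig3, Lig4, Poll, Polm, Poln and Rev1 differed by 0.00 to 0.37.

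Mitochondrial DNA has its own replisome, and 1 of its 5 genes in the list was higher. Polg2, the accessory subunit of the mitochondrial polymerase, had 7.84, 7.37 and 7.96 in OVA 1 to 3, against 6.56, 6.70, 7.19 and 7.13 in saline 1 to 4. OVA 2 lay close to saline 3, and Polg2 rose by 0.83 (SE 0.20, limma adjusted p = 0.0367). The call was lost without OVA 1 (limma adjusted p = 0.129), OVA 3 (0.184), saline 1 (0.0873), saline 2 (0.0718) or saline 1 and 2 together (0.116), after median centring (0.0614), after a second quantile normalization (0.0543) and with array weights (0.0947). The catalytic subunit Polg differed by 0.15, the helicase Twnk by -0.26 and the primase-polymerase Primpol by 0.11. The binding protein Ssbp1 differed by 0.36 on the probe set used and by 0.44 on its second, RefSeq based probe set, and neither was called.

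The 4 nuclear factor I genes, transcription factors that were first purified as adenovirus replication factors, differed by -0.11 to 0.02. A second, dimmer probe set of Nfia, 5.77, 5.50 and 5.21 in OVA against 6.14, 6.20, 6.39 and 5.87 in saline, differed by -0.66 (SE 0.16, limma adjusted p = 0.0471 over all named probe sets), whereas the first differed by 0.02. Among the 17 members outside these roles, Lin9 was higher. Lin9, a subunit of the MuvB complex that controls cell cycle promoters, had 5.18, 5.09 and 5.56 in OVA, against 4.75, 4.80, 4.80 and 4.61 in saline. It rose by 0.54 (SE 0.13, limma adjusted p = 0.0416), and the losses of the call included those without any 1 of the 7 libraries (0.058 to 0.157), without saline 1 and 2 together (0.0807) or without saline 3 and 4 together (0.0577). The Lin9 level lay under the negative control median in both groups, and its fold is therefore poorly measured.

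The histone acetyltransferase Kat7 and the actin-binding Ccdc88a differed by 0.38 and 0.37, and Dntt, the template-independent polymerase of lymphocytes, by -0.28. Dntt lay under the negative control median in both groups. The tumour suppressor Fhit differed by -0.19, the matrix-linked growth factor Ccn2 by -0.13 and the membrane chaperone Phb by 0.06, and the remaining members of this group by -0.12 to 0.43. None of these was called by limma, where the lowest adjusted p after that of Lin9 was 0.176.

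Over all genes the share called higher rose with level, whereas among the members it was highest between levels 6.5 and 8. Of 37 members with a mean level under 6.5, 4 were higher, beside 1.18% of all genes at such levels. Of 34 members between 6.5 and 8, 8 were higher, beside 6.79%, and of 25 members at 8 or over, 4 were higher, beside 11.1%. The median differences of the members in these ranges were 0.12, 0.24 and 0.31, beside -0.12, -0.04 and 0.11 for all genes. Both group means lay under the negative control median for 13 members, of which 1, Lin9, was called.

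**Figure D4:**
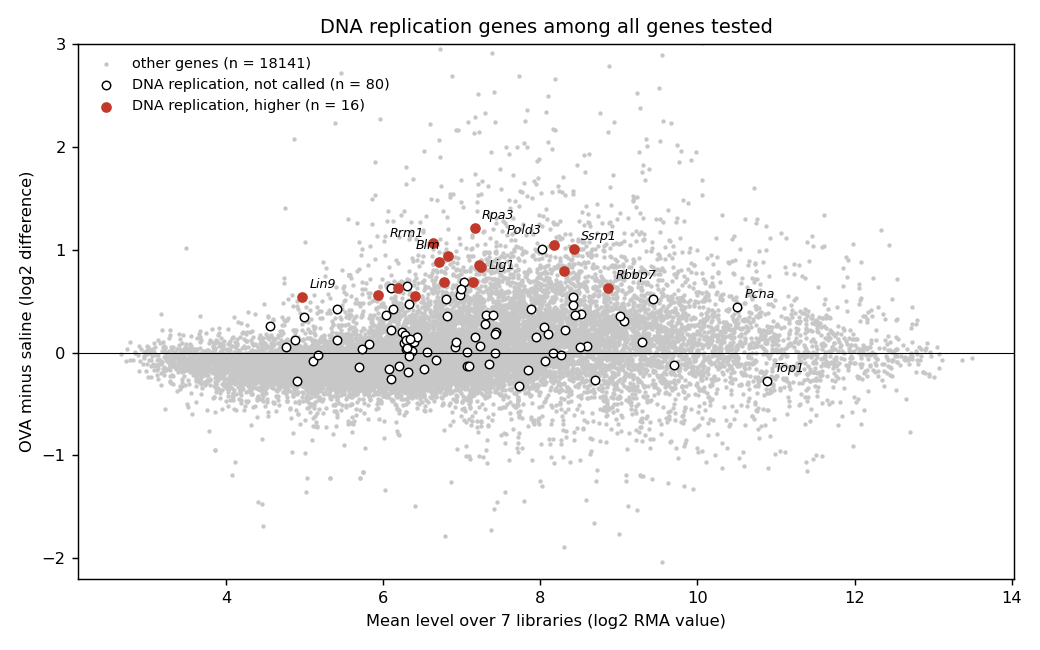
OVA minus saline difference (y axis, log2) against the mean level over 7 libraries (x axis, log2 RMA value) for 18141 other genes (grey), 80 replication genes that were not called (open) and 16 that were higher (red). The red points lie between 0.54 and 1.21 within the upper part of the grey cloud, and 11 genes above 3 are not drawn.

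The saline libraries differed among themselves. For 30 of the 96 genes (31.2%) both saline 3 and 4 lay above both saline 1 and 2, beside 22.7% of all genes, and for 19 genes they lay below, beside 31.8% of all genes. Of the 16 called genes, 6 showed the first pattern. With saline 1 and 2 left out, 12 members were higher, 7 of them among the 16, beside 4.49% of all genes. With saline 3 and 4 left out, 33 were higher, 15 of them among the 16, beside 2187 of all genes. The count was 9 without OVA 1, 6 without OVA 2, 4 without OVA 3 and 10 without saline 1, beside 3.18%, 2.36%, 2.0% and 3.82% of all genes. The median SD of the members was 0.14 in OVA and 0.21 in saline, beside 0.13 and 0.18 for all genes.

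Genes around replication were described from lists of known function. Of 79 measured genes with a role in replication that lack the exact entry, 7 (8.86%) were higher and 0 lower by limma. The shares over all genes were 5.27% and 1.17%. The median difference of the 79 genes was 0.07, and 27 differences were below 0. The 7 genes higher, all named because they were called, were Tipin, a fork protection factor (1.85, SE 0.33), the histone chaperones Asf1a (1.28) and Set (0.56), the polymerase epsilon subunit Pole4 (1.20), the clamp unloader Atad5 (0.63), the thymidylate synthase Tyms (0.60) and the topoisomerase Top2a (0.59). The saline means of Tipin (5.10) and Atad5 (5.21) and the OVA mean of Atad5 (5.84) lay under the negative control medians, so both differences are poorly measured. Tipin had 6.73, 7.03 and 7.10 in OVA 1 to 3, against 4.76, 4.83, 6.16 and 4.65 in saline 1 to 4, with saline 3 apart from the others. Top2a had 6.63, 6.53 and 6.49 in OVA, against 5.98, 5.98, 5.95 and 5.94 in saline, a small and even difference (limma adjusted p = 0.00627). Its saline mean of 5.96 lay near the negative control median. Timeless, the partner of Tipin, differed by -0.21 and was not called.

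Among 16 E2F and pocket protein genes 1 (6.25%) was higher and 0 lower, beside 5.27% and 1.17% of all genes. Rbl1, a pocket protein that restrains E2F, had 6.36, 6.81 and 6.70 in OVA, against 5.73, 5.36, 5.55 and 5.52 in saline, and rose by 1.08 (SE 0.14, limma adjusted p = 0.00214), with a saline mean under the negative control median. Its relatives Rb1 and Rbl2 differed by 0.79 and 0.82 (limma adjusted p = 0.077 and 0.0645), and the activator genes E2f1, E2f2 and E2f3 by -0.02, -0.16 and 0.10. Among 20 genes of G1 and S phase cyclins, kinases and inhibitors 4 were higher and 0 lower: the kinase subunits Cks2 (1.11) and Cks1b (0.74), the inhibitor Cdkn1b (0.84) and the kinase Cdk6 (0.80). The S phase cyclins Ccne1, Ccne2 and Ccna2 differed by -0.24, 0.02 and -0.11 and were not called.

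Of 28 measured genes of mitosis, 1 was higher and 1 lower, with a median difference of 0.04, and limma called 0 of them without OVA 1, without OVA 2 or after median centring. Mad2l1, a spindle checkpoint protein, rose by 1.69 (SE 0.39), with saline libraries spread over 6.05 to 8.06, and Cenpa, the centromeric histone, fell by 0.68 (SE 0.14). The mitotic genes Ccnb1, Plk1, Aurkb and Birc5 differed by -0.18, 0.09, -0.08 and 0.06 and were not called by limma. Of 24 genes of deoxynucleotide supply 3 were higher (Rrm1, Rrm2b and Tyms) and 0 lower. Rrm1 and Rrm2b are members already counted, and without members 1 of 18 genes (5.56%) was higher, beside 5.27% of all genes. Tyms and, in the next list, Tipin are also among the 7 genes named before. Of 21 genes of the damage checkpoint and p53 targets 4 were higher and 0 lower: Tipin, the growth arrest gene Gadd45a (0.74), the cyclin G gene Ccng1 (0.53) and the damage kinase Atm (0.47), which lay under the negative control median in both groups. Without OVA 2 or without OVA 3, the count fell to 0 in each of the supply and checkpoint lists.

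Genes listed as markers of other cells moved between the groups as well, and their part in the differences of the replication genes was not tested. Which cells expressed these genes was not measured. Alveolar macrophage markers had 8 of 17 genes higher and 1 lower, with a mean level of 7.96 to 8.34 in OVA libraries and 6.80 to 7.11 in saline libraries, and the gene lower, Ear1, is also in the eosinophil list. Of the genes higher, the chitinase-like Chil3 had 12.47 ± 0.46 in OVA and 6.26 ± 0.39 in saline, the carbonic anhydrase Car4 11.77 ± 0.19 in OVA and 6.42 ± 0.47 in saline, and the mannose receptor Mrc1 7.89 ± 0.70 in OVA and 5.83 ± 0.62 in saline. The scavenger receptor Marco, which was not called, had 5.91 ± 0.21 in OVA and 6.10 ± 0.20 in saline. Of the 17 differences in this list 6 were below 0, those of Fabp1 (-0.71) and Siglec1 (-0.24) included, and neither gene was called. Genes of eosinophil progenitors and immature granulocytes had 4 of 15 higher (Cd34, Epx, Prg2 and Cebpe, the last 3 also in the eosinophil list) and 0 lower, with a mean level of 7.82 to 7.91 in OVA libraries and 7.29 to 7.43 in saline libraries. The list did not move as a whole: its median difference was 0.004, and 7 of the 15 differences were below 0. Mpo and Elane, granule enzymes of early granulocyte precursors, were at 6.33 and 5.92 in OVA and at 6.33 and 6.21 in saline. Cd34 had the largest difference of the list (3.86). Myb, which was not called, differed by 0.44 (SE 0.11, limma adjusted p = 0.0541). The neutrophil list (8.08 to 8.69 in OVA, 7.78 to 8.22 in saline) had 3 of 8 higher, Ngp (1.34), Ltf (0.86) and Lcn2 (0.43). In it 4 of the 8 differences were below 0. The epithelial list (7.80 to 7.87 in OVA, 7.30 to 7.67 in saline) had 2 of 10 higher, Sftpc (2.525) and Sftpa1 (0.52). Here 5 of the 10 differences were below 0.

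T cell markers had 1 of 11 higher (Cd2), with Cd3d at 8.07 ± 0.39 in OVA and 9.21 ± 0.62 in saline, and a mean list level of 6.59 to 6.83 in OVA and 6.68 to 6.82 in saline. B and plasma cell markers had 1 of 9 higher (Jchain), with a level of 5.95 to 6.17 in OVA and 5.88 to 5.94 in saline. In the lists of monocytes and interstitial macrophages (11 genes), NK cells (7), dendritic cells (11), mast cells and basophils (9), endothelium (8), fibroblasts (7) and erythroid cells with platelets (6), limma called 0 genes, and the last of these lists lay at 6.70 to 6.99 in OVA and at 7.15 to 7.67 in saline. Among the 12 eosinophil genes 5 were higher and 3, the ribonuclease genes Ear1, Ear2 and Ear6, lower.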

How the data were processed

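Total RNA of 7 libraries was amplified and labelled with biotin using NuGEN kits, per the labels, and hybridised to MoGene_1_0_st_v1 mouse arrays, per the file headers. The values are log2 levels that the authors deposited after RMA, per the submitters' processing notes; the version and settings used are not given in the sources used here. The deposited columns had close medians but not 1 common spread. Another 7 value columns of the annotated table match no sample label and were not used. The number of arrays limits the precision.

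The GO terms, accessions and symbols came from the table the authors deposited. Symbols were updated through RefSeq genes (GRCm38.p6, names only): of 35557 probe sets 16891 matched by accession, 1290 by symbol and 670 by synonym, 993 kept the table's symbol and 15713 had none. The 18237 genes were fitted with limma 3.58.1 (R 4.3.3; lmFit, eBayes, group only, no filter on dim genes). On simulated data with 18237 genes, 14.9% of genes changed by 0.5 log2 were called in OVA minus saline, 80.6% of those changed by 1 and all changed by 2, with 9 false calls. The simulated noise was independent between libraries and equally wide in both groups, unlike the deposited values. These figures therefore need not hold for the deposited values. The members and lists were chosen with earlier results of these data known. Genes named were core replication genes, called members and the brightest of each role. Called genes of the related lists and part of those of the marker lists were also named, and others after their values were seen. Probe sets of Pcna, Phb, Ssbp1, Tk1 and Rpa3 may share sequence with near-identical copies, so their values are uncertain. Deviations from group means correlated across groups at 0.272, -0.138 and 0.24 for equal replicate numbers, so numbers were not taken as pairs. Some unequal numbers gave larger values: OVA 1 had 0.454 with saline 2 and -0.475 with saline 4. OVA 3 had -0.355 with saline 2 and 0.404 with saline 4. The cause of this shared pattern was not tested.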

Additional observations from a re-analysis of the deposited data

Results flagged for a closer look

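In the saline group, 1 library stood apart from the other 3 for 5 of the 96 replication genes, its gap to the nearest library exceeding the critical value of Dixon's test. Groups of 3, as in OVA, were not tested, and chance alone marks about 1 in 20 groups. Pold3 was 8.29 in saline 4, above the other saline libraries, which makes the difference from OVA smaller for that library. Polg was 8.05 in saline 3 and Pola1 was 5.98 in saline 2, each the highest of its group. Lig4 was 5.87 in saline 4 and Wrnip1 was 6.12 in saline 3, each the lowest of its group.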

How the results depend on the processing

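Over 18 alternatives, the count of replication genes higher in OVA was 33 without saline 3 and 4 together and ran from 4 to 20 with 1 library left out. It was 12 to 24 in the other alternatives. The count lower was 1 (Twnk, difference -0.45) without saline 3 and 4 together and 0 in the 17 others. The median difference of the members was 0.29 with dim genes removed, where 56 members were left. No called member changed sign. Calls were lost by 12 of the 16 members in at least 1 alternative, and 27 others were called in at least 1. Over all genes, 1652 were higher with array weights, 2187 without saline 3 and 4 together and 365 to 1213 with 1 library left out. The counts lower were 679 with array weights, 475 after cyclic loess, 118 after median centring, 511 after a second quantile normalization, 406 without saline 1 and 2 together, 990 without saline 3 and 4 together, and 68 to 267 with 1 library left out.

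Calls among E2F and pocket protein genes numbered 4 with array weights or the replicate block, 2 after cyclic loess or quantile normalization, 5 without saline 3 and 4 together and 1 to 4 with 1 library left out. Calls in the list of G1 and S phase genes numbered 7 with array weights and 2 to 5 with 1 library left out. In the mitosis list there were 0 after median centring, without OVA 1 or without OVA 2, and 0 to 2 with 1 library left out. In the deoxynucleotide list there were 8 without saline 3 and 4 together and 0 to 3 with 1 library left out. In the checkpoint list there were 2 with dim genes removed or after median centring, 1 without saline 1 and 2 together and 0 to 4 with 1 library left out. The causes were not tested.

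The replicate numbers are shared by both groups but pair no samples by the labels or by the correlation of deviations. With the replicate number as a replicate block, 22 members were higher, Nasp (limma adjusted p = 0.00953) included, and 13 of them were among the 16. The calls of Orc2 (0.0544), Prim2 (0.0506) and Lin9 (0.0639) were lost under the block, and 1357 of all genes were higher and 315 lower. A single gene with a level near the negative controls has an uncertain difference.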
